A study of Mus musculus with 6 samples.

Results

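Serpins are protein inhibitors that act as suicide substrates: a protease cleaves an exposed loop of the serpin and is trapped in a covalent complex with it. Clade A holds secreted plasma inhibitors and the antichymotrypsin-like Serpina3 genes, and clade B holds inhibitors that stay mostly inside the cell, where in myeloid cells they are known to guard against proteases leaking from granules and lysosomes. Other clades include protease nexin-1 (Serpine2, clade E) and members that inhibit no protease, such as Serpinf1 and the collagen chaperone Serpinh1. The genes described here were chosen by a deposited symbol that begins with Serpin followed by a clade letter from a to i. Among the 31248 genes with a usable value, 56 such genes are reported, 22 in clade A, 25 in clade B and 9 in clades C to I.

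RNA was measured in common myeloid progenitors of C57Bl/6 mice that carried floxed Dot1l alleles (Dot1l flox/flox) and had been transformed with the retroviral vector MSCV-MN1-IRES-GFP, which carries the leukaemia oncogene MN1 together with GFP. Dot1l encodes the methyltransferase of histone H3 lysine 79, a mark of transcribed gene bodies. Control cells were transduced with a control vector and stayed Dot1l flox/flox, and Dot1l-deleted cells were transduced with Cre recombinase and are labelled Dot1l -/-. Both groups were grown in M3234 methylcellulose with FBS, IL3, IL6 and SCF and were sorted at day 7, with 3 libraries each. Cells with Cre and an intact Dot1l gene were not analysed here, so Cre itself and the loss of Dot1l cannot be told apart. The labels do not say that the replicates were separate cultures or animals, and p-values therefore measure only the spread between these libraries, which may be technical.

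Values are FPKM, fragments counted per kilobase of transcript and scaled for library depth, so levels can be compared between genes. Dot1l stood at 20.2, 22.6 and 19.6 FPKM in control and at 8.24, 8.17 and 5.80 in deleted libraries, 2.81-fold lower and with no overlap. Between 17310 and 18034 genes were above 0 per library. Dot1l-deleted replicate 3 stood apart: its 10 highest rows held 39.0% of all FPKM, against 6.59% to 10.8% elsewhere, and the median deviation of its genes from their all-library level was -0.366 on the log2 scale, against 0.050 to 0.103 in the other libraries. Its lower values touch most of the results, so these are also given after median-of-ratios scaling, which sets each library to a common median gene, and without that library. That scaling moved the median log2 fold change over the tested genes from -0.16 to 0.00. Late neutrophil markers (10 of 12 tested, all 10 called higher) had a summed level of 994 to 1225 FPKM in the controls and 20617 to 24443 after deletion, and monocyte and macrophage markers (6 of 7 tested called higher, C1qa at 0) went from 85.6 to 109 up to 443 to 523. Of the 12 markers of myeloid progenitors, the labelled cell type, all were tested and 5 were called higher and 5 lower. Over all tested genes 7.43% were called higher and 12.2% lower. In the list for mast cells and basophils, 2 of 8 tested were called higher and 4 lower, with sums of 2420 to 2662 and 1543 to 2244 FPKM. After deletion S100a8 and S100a9 held most of the neutrophil sum (means of 13073 and 8392 FPKM), Lyz2 most of the monocyte sum (383) and Cpa3 most of the mast cell sum (1500). Of the called markers, Ltf, Retnlg, Csf1r, Fcgr1 and Mcpt3 reached the mean of 1 FPKM needed for testing only through the deleted libraries, and Prss34 only through the controls. The part of these cell types in the serpin results was not tested. In bulk RNA fewer cells of a type and less RNA per cell cannot be told apart.

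Loss of Dot1l was accompanied by lower RNA of 6 serpins: Serpina3g and Serpina3b of clade A, and Serpinb2, Serpinb8, Serpinb7 and Serpinb9 of clade B. Serpina3g fell 6.04-fold and Serpinb2 4.76-fold, and both were among the 4 most abundant serpins of the control cells. No serpin was called higher on the values as deposited, where 7.43% of all tested genes were called higher and 12.2% lower. Serpinf1, Serpinb6a and Serpine2 were called higher once the libraries were scaled to a common median. These are 3 of 13 tested serpins, near the 23.1% of all tested genes called higher after scaling. The most abundant member, the granule protease inhibitor Serpinb1a, did not pass the test in either analysis.

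In total 13 serpins had a mean of at least 1 FPKM over the 6 libraries and were tested, which is 23.2% of these genes against 38.2% of all genes. Limma on log2(FPKM + 1) called 0 higher and 6 lower at an adjusted p under 0.05, where 7.43% of all tested genes were called higher, 12.2% lower and 19.7% in either direction. At an unadjusted p under 0.05 the same fit had 2 serpins higher (Serpinf1 and Serpinb6a) and 7 lower. The groups did not overlap for 9 serpins that were lower and 1 that was higher, against 34.1% and 10.7% of all tested genes, and overlapped for the other 3. Of the genes that were lower, Serpina3b, Serpinb7 and Serpina3f had a mean under 1 FPKM in the deleted cells and so reached the filter only through the controls, where they are high; Serpina3b and Serpinb7 are also among the 6 calls. After median-of-ratios scaling 3 serpins were called higher and 7 lower, against a background of 23.1%, 22.3% and, in either direction, 45.4%. Without Dot1l-deleted replicate 3 the counts were 2 higher and 7 lower, against 17.1%, 21.1% and 38.2%. The median log2 fold change of the 13 was -0.52 as deposited, beside -0.16 for all tested genes, and -0.39 beside 0.00 after scaling.

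**Figure D1:**
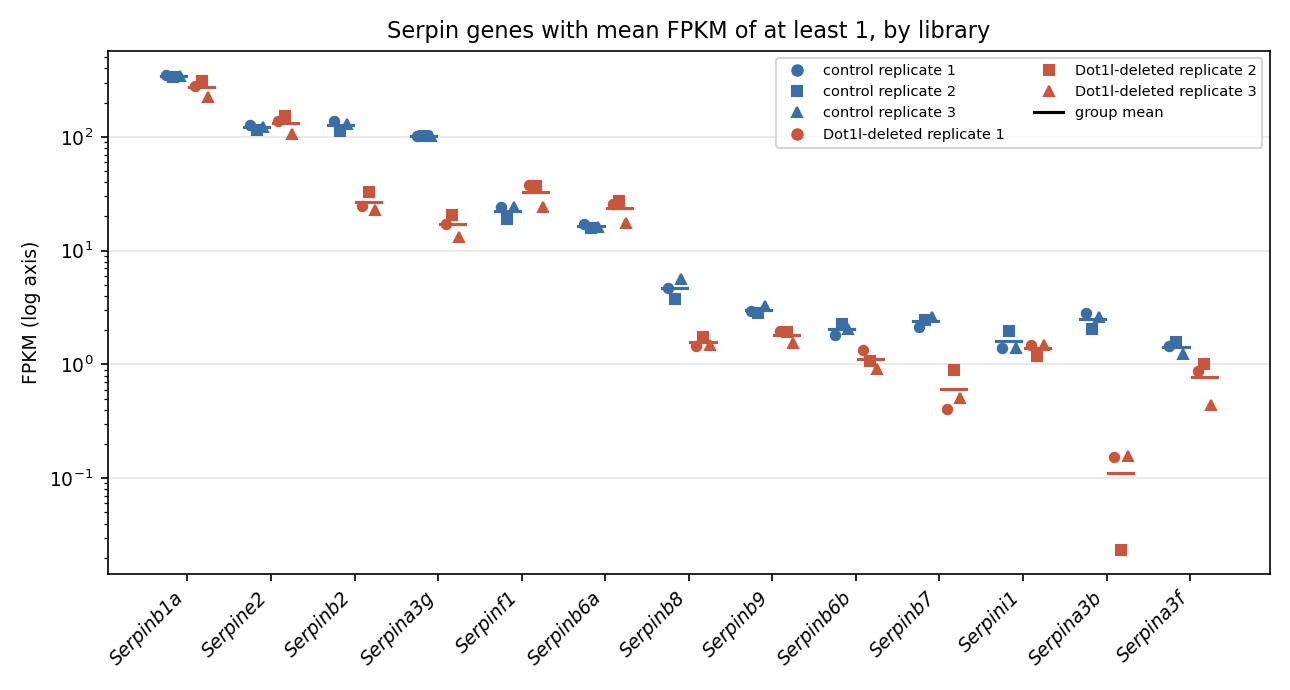
FPKM of the 13 tested serpins in each of the 6 libraries, on a log axis, ordered by mean level; points are libraries and bars are group means. Serpinb2, Serpina3g, Serpinb8, Serpinb7 and Serpina3b show the widest gaps between the 3 control and the 3 Dot1l-deleted libraries, and Serpina3b reaches 0.0234 FPKM in one deleted library.

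**Figure D2:**
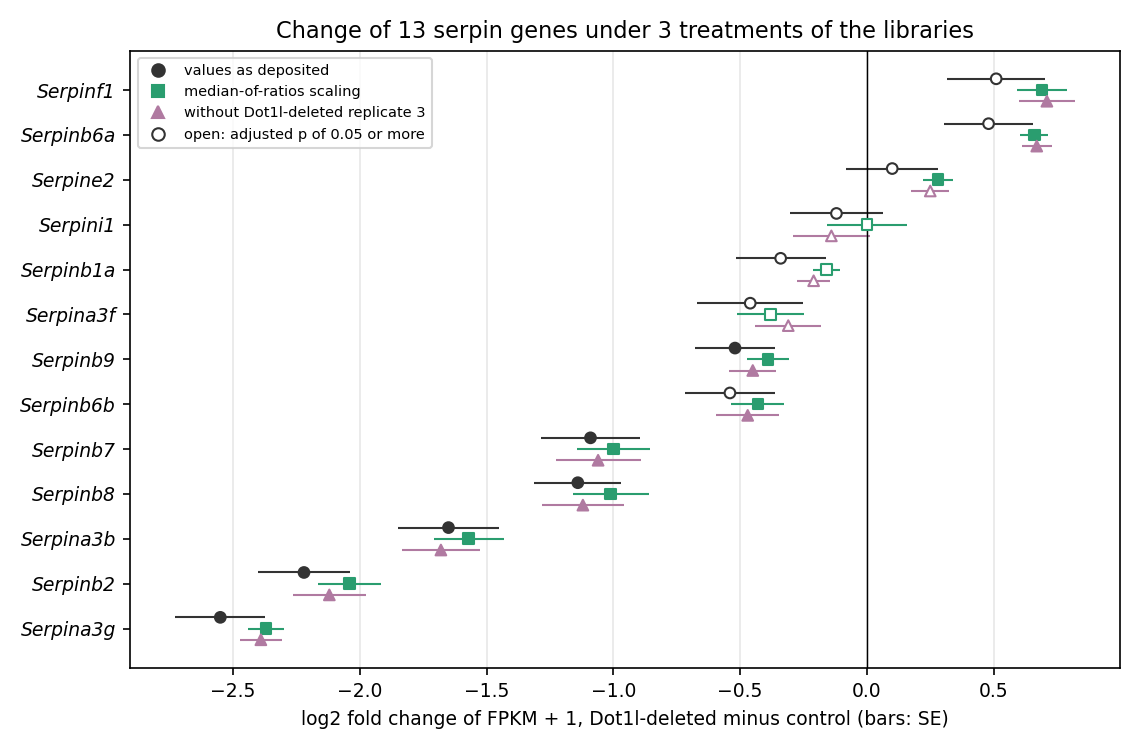
Log2 fold change (Dot1l-deleted minus control, on the log2(FPKM + 1) scale, bars are standard errors) of the 13 serpins with values as deposited, after median-of-ratios scaling and without Dot1l-deleted replicate 3. Filled symbols have a limma adjusted p under 0.05; 5 of the 6 genes lowered in the deposited values lie at -1.09 or below, and the 3 genes at the top are open as deposited and filled after scaling.

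Of the 22 clade A genes 3 passed the filter, all of them in the Serpina3 cluster on chromosome 12. Serpina3g, also known as Spi2A, is an intracellular cross-class inhibitor of lysosomal cysteine cathepsins such as cathepsins B and L. The controls held 103, 103 and 103 FPKM and the deleted cells 17.2, 20.7 and 13.3. The control libraries were nearly equal (103 ± 0.213, SD, n = 3) and every deleted library was far below them (17.1 ± 3.70, SD, n = 3). Its log2 fold change was -2.55 (SE 0.177, limma adjusted p = 4.48e-06), and -2.37 after scaling.

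Serpina3b, an antichymotrypsin-like gene, fell from 2.81, 2.06 and 2.61 FPKM to 0.154, 0.0234 and 0.158. The ratio of the means was 22.3, the widest of the 13 tested serpins, and this gene passed the filter only through its control libraries. Its log2 fold change was -1.65 (SE 0.198, limma adjusted p = 0.000187), a scale that understates the change of low genes. Serpina3f, the tested member nearest to the filter with a mean of 1.10 FPKM, was at 1.46, 1.57 and 1.23 FPKM in control cells and at 0.876, 1.02 and 0.436 in deleted ones. The groups did not overlap, yet the change did not pass the test (log2 fold change -0.46, SE 0.208, adjusted p = 0.16), nor did it after scaling (adjusted p = 0.0627), though it did after quantile normalization (adjusted p = 0.0325). Within each library Serpina3g exceeded Serpina3f 70.5-, 65.8- and 83.8-fold in the controls and 19.6-, 20.2- and 30.5-fold in the deleted cells, a ratio that does not depend on scaling. The Serpina3 genes are close copies of each other, and how reads were split among them is uncertain.

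The promoters of these 3 genes are shown with the longest run of letters they share, capitalised below. In RefSeq promoter windows of GRCm38.p6 (250 bases before to 50 after the start, a newer build than the mm9 of the expression tables), the 12-letter run was present, on either strand, in 10 of 27025 genes, or 0.0370%. It begins 33 bases into the Serpina3g transcript, 59 bases before the start of Serpina3b and 65 before that of Serpina3f. The run was found by comparing these 3 promoters, the genes are copies of each other, and the match is a description only. All 3 windows are on the plus strand, at chr12:104236167-104236196, chr12:104127928-104127957 and chr12:104214470-104214499 in the order given, 5′ to 3′.
Serpina3g: tatctgcatcaaCATTTCCTAAGAtgtggg
Serpina3b: tcacgtcagCATTTCCTAAGAggaaggagg
Serpina3f: atacatcacCATTTCCTAAGAtgtgggacc

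Serpinb2, Serpinb7 and Serpinb8 lie together in the clade B cluster on chromosome 1, and all 3 were called lower after deletion, where 12.2% of all tested genes were. The other serpins of this cluster were below the filter and were not tested. Serpinb2 is plasminogen activator inhibitor type 2, an inhibitor of urokinase that is abundant in activated monocytes. It was at 137, 113 and 131 FPKM in the controls and at 24.7, 32.7 and 22.8 in the deleted cells. The lowest control was still more than 3 times the highest deleted library, for a log2 fold change of -2.22 (SE 0.180, limma adjusted p = 1.16e-05).

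Serpinb8, known as an inhibitor of the proprotein convertase furin, was at 4.69, 3.75 and 5.65 FPKM in the controls. The deleted libraries were at 1.45, 1.76 and 1.48, all below the lowest control, and the mean was 3.0-fold lower (log2 fold change -1.14, SE 0.172, adjusted p = 0.000901). Serpinb7, also called megsin and described in kidney mesangial cells, was at 2.13, 2.47 and 2.60 FPKM in the controls against 0.409, 0.890 and 0.509. Like Serpina3b it reached the filter through the controls alone, where it was 3.98-fold higher than in the deleted cells (log2 fold change -1.09, SE 0.194, adjusted p = 0.00258). Serpina3g, Serpina3b, Serpinb2, Serpinb8 and Serpinb7 were called lower under each of the 15 alternative analyses.

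The 120 bases before the start of these chromosome 1 genes are shown because each holds the letters TGANTCA, the form of an AP-1 site, given in capitals. This string reads the same on both strands apart from its middle base. It was found in these 3 of the 12 tested serpins that have a promoter in the table (Serpinb1a was not matched), and in 7.92% of the 27025 promoters. It begins 45 bases before the start in Serpinb7, 94 in Serpinb2 and 23 in Serpinb8, which has a second copy 14 bases into the transcript, and it overlapped none of the other motifs searched. The windows are on the plus strand of GRCm38.p6 at chr1:107422569-107422688, chr1:107511303-107511422 and chr1:107589886-107590005, 5′ to 3′.
Serpinb7: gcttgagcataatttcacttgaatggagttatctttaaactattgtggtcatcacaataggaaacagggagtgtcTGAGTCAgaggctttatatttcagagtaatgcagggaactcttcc
Serpinb2: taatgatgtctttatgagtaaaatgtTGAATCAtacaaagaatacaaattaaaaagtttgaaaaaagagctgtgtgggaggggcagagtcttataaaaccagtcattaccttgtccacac
Serpinb8: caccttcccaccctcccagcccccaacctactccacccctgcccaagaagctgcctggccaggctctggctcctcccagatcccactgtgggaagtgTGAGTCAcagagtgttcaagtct

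The other strings searched on both strands were TTCNNNGAA (STAT form), in 4 of the 12 serpin promoters and 8.42% of all, TATAAA, known from core promoters, in 4 of 12 and 14.2%, and TTGCNNAA (C/EBP form), in 3 of 12 and 10.7%. These matches are descriptions and not binding sites. CG pairs in the 300-base window numbered 0 to 5 in the 6 genes called lower, against a median of 7 over all promoters. Having 5 or fewer is common, as 43.6% of all promoters do. Of the serpins not called, 3 had more than that median, with 41 in Serpine2, 25 in Serpinb6a and 15 in Serpini1, and 3 others, Serpinf1, Serpinb6b and Serpina3f, had 3, 4 and 0.

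The chromosome 13 cluster holds the clade B inhibitors of granule and cytotoxic proteases. Serpinb1a, the mouse counterpart of the leukocyte elastase inhibitor, was the most abundant serpin of every library, ranking between 194 and 281 among 31248 genes. Its level was 354, 336 and 343 FPKM in control and 282, 312 and 226 in deleted cells. Each deleted library was below each control, but the log2 fold change of -0.34 (SE 0.177) had an adjusted p of 0.211, and after scaling it was -0.16 with an adjusted p of 0.0553. It passed the test only after quantile normalization among the 15 alternatives (-0.26, adjusted p = 0.00611).

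Serpinb6a, an inhibitor of cathepsin G, was at 17.3, 15.7 and 16.3 FPKM in the controls and at 25.8, 27.5 and 17.6 in the deleted cells. All deleted libraries were above the controls, replicate 3 only just. As deposited it differed by 0.48 on the log2 scale (SE 0.177, adjusted p = 0.0859), after scaling 0.66 (adjusted p = 0.000261) and without replicate 3 0.67 (adjusted p = 0.00105). Its paralogue Serpinb6b lay on the other side of its controls, at 1.83, 2.28 and 2.05 against 1.34, 1.08 and 0.914 FPKM (log2 fold change -0.54, SE 0.179, adjusted p = 0.0622, and 0.0186 after scaling). Within each library Serpinb6a exceeded Serpinb6b 9.41-, 6.86- and 7.93-fold in the controls and 19.2-, 25.5- and 19.3-fold after deletion, with no overlap.

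Serpinb9, the inhibitor of granzyme B, was at 2.94, 2.86 and 3.29 FPKM in the controls and at 1.97, 1.93 and 1.54 in the deleted cells. The groups did not overlap and the mean was 1.67-fold lower (log2 fold change -0.52, SE 0.159, adjusted p = 0.0437). This call is marginal: it was lost when any 1 control library, or Dot1l-deleted replicate 1 or 2, was left out (adjusted p of 0.0644 to 0.214), and held after scaling (adjusted p = 0.00955). The rodent Serpinb9 genes form a family of copies, so the split of reads is uncertain here too.

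Serpins of clades E, F and I were not called lower. Serpine2, or protease nexin-1, an inhibitor of thrombin, plasmin and urokinase, was among the 4 most abundant serpins of the controls and next to Serpinb1a in the deleted cells, at 128, 115 and 123 against 137, 153 and 106 FPKM. These groups overlapped through replicate 3 (log2 fold change 0.10, SE 0.181, adjusted p = 0.731), and scaling gave 0.28 with an adjusted p of 0.0103.

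Serpinf1, pigment epithelium-derived factor, a secreted serpin without inhibitory activity that restrains blood vessel growth, was at 24.2, 19.1 and 24.0 FPKM in the controls. In the deleted libraries it was at 37.5, 36.8 and 24.1, so that replicates 1 and 2 lay well above the controls and replicate 3 among them. On the log2 scale the difference was 0.51 (SE 0.194, adjusted p = 0.096) as deposited, 0.69 (adjusted p = 0.00212) after scaling and 0.71 (adjusted p = 0.00649) without replicate 3. Serpini1, neuroserpin, an inhibitor of tissue plasminogen activator best known from neurons, was at 1.41, 1.97 and 1.41 against 1.49, 1.19 and 1.47 FPKM, with overlapping groups (log2 fold change -0.12, SE 0.184, adjusted p = 0.686).

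The make-up of the serpin pool is free of the library scale, since each gene is taken as a share of the summed RNA of the 56 reported serpins in its own library. The summed level was 782, 720 and 760 FPKM in control and 533, 592 and 417 in deleted cells, lower in every deleted library, and also after scaling (678 to 722 against 507 to 569). Serpinb2 went from 16.8% ± 0.990 to 5.21% ± 0.492 of the pool and Serpina3g from 13.7% ± 0.570 to 3.30% ± 0.167 (SD, n = 3 per group). Serpinb1a made up 45.7% ± 0.844 in the controls and 53.3% ± 0.766 in the deleted cells, and Serpine2 16.1% ± 0.204 and 25.6% ± 0.182. The shares of Serpinf1 (2.97% and 6.35%) and Serpinb6a (2.17% and 4.58%) were higher in replicate 3 too, at 5.79% and 4.23%. A share that is higher in a smaller pool is not in itself a higher level. The ratio of Serpine2 to Serpina3g was 1.24, 1.11 and 1.20 in the controls and 7.96, 7.38 and 7.97 in the deleted libraries, replicate 3 included.

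**Figure D3:**
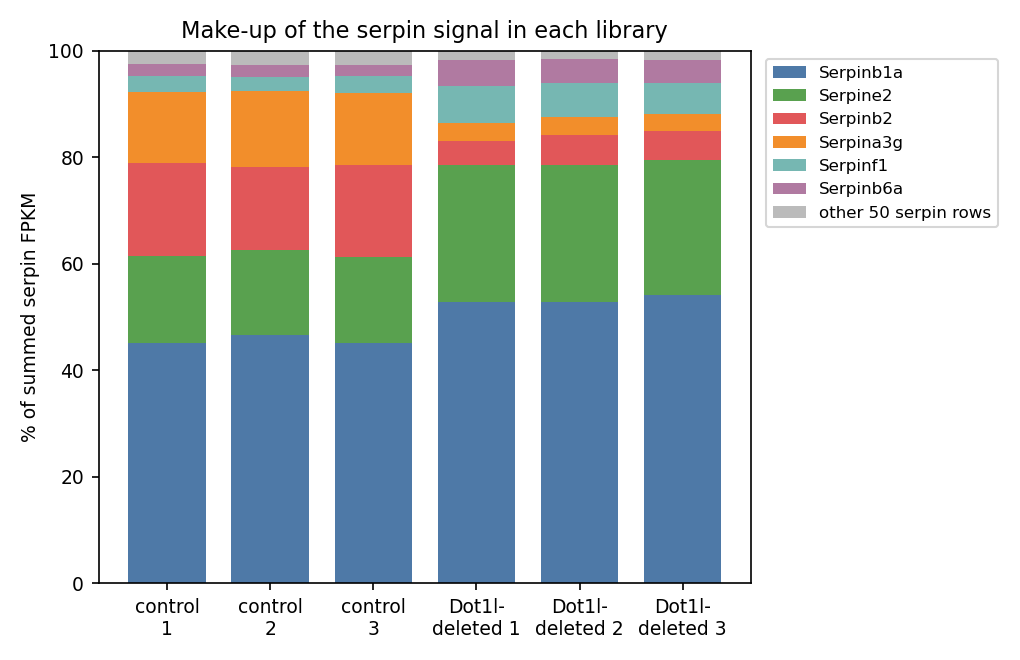
Share of summed serpin FPKM, in percent, held by each of the most abundant serpins in the 6 libraries. Serpinb2 and Serpina3g take a much smaller share in all 3 Dot1l-deleted libraries, and Serpinb1a and Serpine2 together a larger one.

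The other 43 serpins lay below the filter, and the gap was wide: the highest of them, Serpinb11, had a mean of 0.259 FPKM, against 1.10 for Serpina3f just inside. In all 6 libraries 21 were listed at 0, among them 13 of the 22 clade A genes, including Serpina1a to Serpina1f (alpha-1-antitrypsin) and Serpina5, and Serping1, the C1 inhibitor. Of 6 hepatocyte markers in the tables, Ttr, Fga and Fgb were also at 0 in all libraries. Alb and Apoa1 did not exceed 0.234 FPKM, and the fetuin gene Ahsg, the 1 tested, fell from 4.42, 3.90 and 3.55 to 1.44, 1.07 and 0.785 FPKM (log2 fold change -1.25, adjusted p = 0.000632). Of the 22 serpins above 0 somewhere, 13 were seen in both groups, 7 only in deleted libraries and 2 only in controls, and none exceeded 0.538 FPKM in any library. The plasma inhibitors antithrombin (Serpinc1), heparin cofactor II (Serpind1) and alpha-2-antiplasmin (Serpinf2) were among them, at no more than 0.142 FPKM.

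At this low level the groups did not overlap for 5 genes that were higher, where 14.3% of all genes below the filter and above 0 were, and for 3 that were lower, where 8.03% were. These were singled out after their values were seen. The higher ones were Serpinb9g, Serpinb9b, Serpinb9e, Serpina11 and the collagen chaperone Serpinh1, the last 4 of which were at 0 in every control and at 0.0195 to 0.175 FPKM in the deleted libraries. The lower ones were Serpinb11, Serpinb3a and the pseudogene Serpina3h. Serpina3h, which lies next to Serpina3g, read 0.228, 0.205 and 0.200 FPKM in control and 0, 0.0474 and 0 in deleted libraries, and was the only one called when limma was run without the filter. Its resemblance to Serpina3g leaves the origin of its reads uncertain. FPKM tables give no read counts, so the counting error of such values is unknown.

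In the lists of granule proteases and cathepsins, some of which serpins inhibit, more genes were called higher than lower. Over all tested genes 7.43% were called higher and 12.2% lower as deposited, and 23.1% and 22.3% after scaling. Without Dot1l-deleted replicate 3 those shares were 17.1% and 21.1%. Of 6 tested granule serine proteases 4 were called higher and 1 lower (median log2 fold change 1.22). The lower one, Prss34, reached the filter only through the controls. Without the filter 3 were called higher and 0 lower. Prtn3, proteinase 3, went from 148 ± 20.3 to 1181 ± 278 FPKM (SD, n = 3 per group), and Ela2 (now Elane), neutrophil elastase, from 333, 312 and 293 to 1533, 1577 and 1035. Prssl1 (now Prss57), a further granule protease, went from 5.79 to 17.6 FPKM. Of 10 tested lysosomal cathepsins 5 were called higher and 0 lower (1 lower after scaling), led by Ctsh, Ctss and Ctsb. The count of cathepsins called higher was 3 without control replicate 1 or 3 and 2 without Dot1l-deleted replicate 1 or 2. It was also 3 without the filter. Ctsh and Ctsf reached the filter only through the deleted libraries, where they are high (control means of 0.255 and 0.704 FPKM). Mast cell proteases had 4 higher and 1 lower of 8, with Mcpt2, Cma1 and Mcpt1 at the smallest adjusted p, of which Cma1 was 2.20-fold lower. Without Dot1l-deleted replicate 2 only 1 was called higher, and without the filter 2 were higher and 0 lower. Mcpt1, Mcpt2 and Mcpt3, all called higher, reached the filter only through the deleted libraries. Among 8 caspases only Casp6, an executioner caspase, was called, 1.69-fold lower. Scaling, or leaving out Dot1l-deleted replicate 3, gave 2 called higher and 2 lower. Both the deposited and the scaled counts are near the shares over all tested genes.

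Of 14 tested genes of the plasminogen and coagulation system 6 were called higher and 5 lower. Over all tested genes the shares were 7.43% and 12.2%, and after scaling 23.1% and 22.3%. Of the 6, F5 and F7 reached the filter only through the deleted libraries, and without the filter 4 were called higher. F5 (coagulation factor V), Plau (urokinase) and F13a1 (factor XIII A chain) were 6.83-, 5.05- and 4.30-fold higher, while Plat and Vtn, tissue plasminogen activator and vitronectin, were listed at 0. The 1 tested complement gene, C3, was 9.49-fold higher. Of 18 tested inhibitors outside the serpin family 7 were called higher and 3 lower (12 and 4 after scaling, 11 and 5 without Dot1l-deleted replicate 3). The cystatin-like Stfa1, Stfa3 and Stfa2 (stefins, near-identical copies) were 18.8-, 14.4- and 13.2-fold higher. Tfpi2, also called higher, reached the filter only through the deleted libraries. Of 6 receptors that clear serpin-protease complexes, 2 were called higher, Lrp1 from 110 to 258 FPKM and Sorl1 3.82-fold, and 0 lower (4 and 0 after scaling, and also without Dot1l-deleted replicate 3). For collagens and their folding enzymes, the clients and partners of Serpinh1, 1 of 13 was called higher and 3 lower (6 and 3 after scaling, 5 and 3 without Dot1l-deleted replicate 3). Col4a1, Plod2 and Plod3 had the smallest adjusted p. Of these, Col4a1 was 27.8-fold and Plod2 1.91-fold lower, and Plod3 was 1.75-fold higher.

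**Figure D4:**
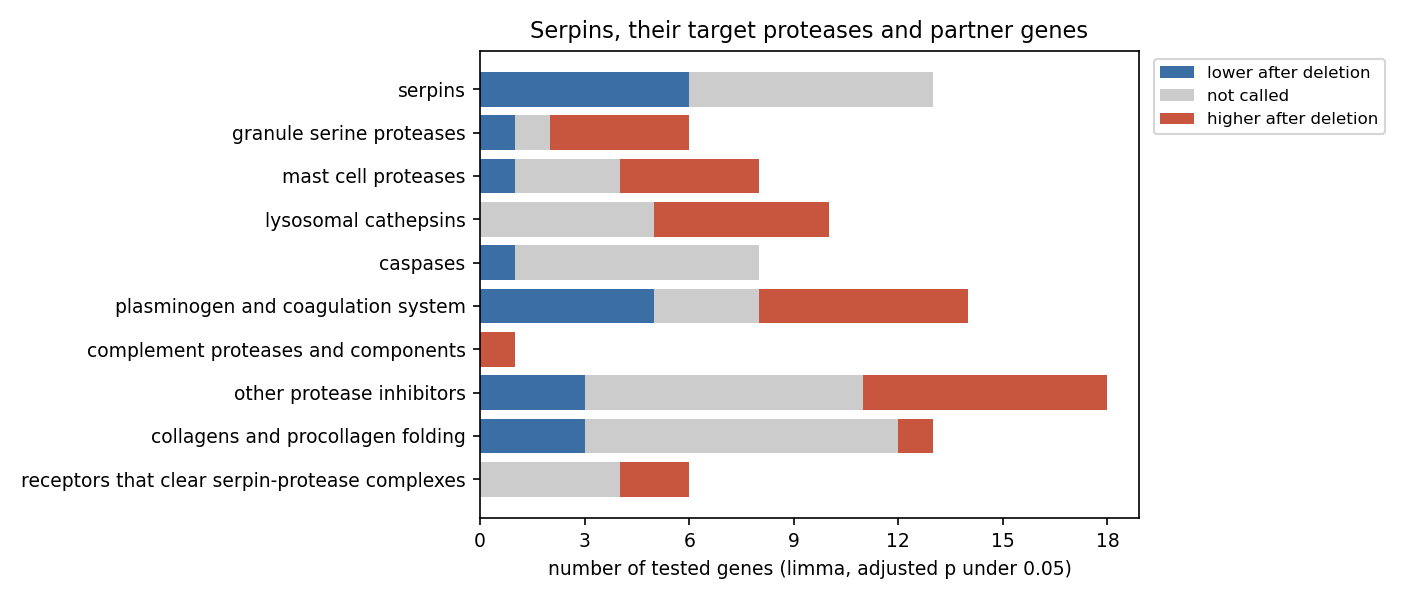
Number of tested genes called lower, not called and called higher after Dot1l deletion (limma, adjusted p under 0.05, values as deposited) among serpins, lists of proteases that include serpin targets, and partner genes. Over all tested genes 7.43% were called higher and 12.2% lower. Serpins have 6 of 13 called lower and 0 higher, while granule proteases have 4 of 6 called higher and cathepsins 5 of 10.

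Set against the serpin known to inhibit it, most of these proteases had more transcript per serpin transcript after deletion. The pairs were taken from textbook knowledge with the results known. The ratios, of FPKM within each library, are free of the library scale and are given with no test. Each ratio whose groups lie apart holds a gene that the fit had already called higher or lower, so it restates those calls and is no separate support. Elastase, proteinase 3 and cathepsin G together stood at 3.31, 2.89 and 2.99 times Serpinb1a in the controls and at 13.9, 12.4 and 11.3 times in the deleted libraries. The ratio of Ctsb to Serpina3g was 0.620, 0.604 and 0.585 in control and 6.68, 5.73 and 6.68 in deleted libraries, 10.6-fold higher on average. For Ctsl, cathepsin L, the ratio to Serpina3g went from 0.600 ± 0.0147 to 2.68 ± 0.198 (SD, n = 3 per group), although Ctsl itself was lower in the deleted libraries (61.8 against 45.7 FPKM).

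The widest shift of the 8 ratios was that of urokinase to Serpinb2. Plau over Serpinb2 was 0.00909, 0.0123 and 0.00804 in the controls and 0.265, 0.209 and 0.230 in the deleted libraries, a 24.0-fold difference of the means. Plau over Serpine2, which was not called lower, differed 4.67-fold. Gzmb over Serpinb9 went from 3.20 ± 0.232 to 11.5 ± 1.70, and Furin over Serpinb8 from 7.01 ± 1.71 to 25.5 ± 2.75 (SD, n = 3 per group). Cathepsin G and Serpinb6a were the exception among the 8 ratios: Ctsg stood at 38.7, 33.6 and 36.3 times Serpinb6a in the controls and at 38.2, 37.1 and 36.6 times in the deleted cells, and the groups overlapped. These are ratios of RNA and say nothing of protein or of protease activity.

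**Figure D5:**
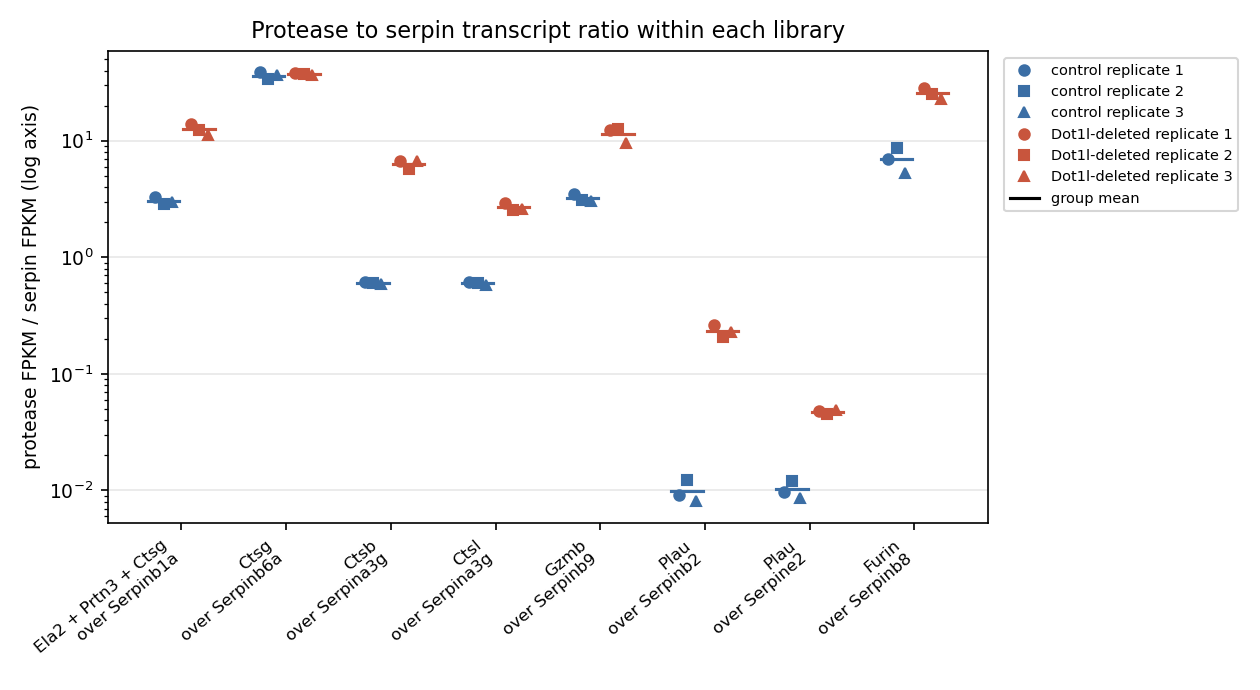
Ratio of protease FPKM to serpin FPKM within each library, on a log axis, for 8 protease and serpin pairs; points are libraries and lines are group means. The groups are apart in 7 of the pairs, most widely for Plau over Serpinb2 and Ctsb over Serpina3g, and overlap for Ctsg over Serpinb6a. Each of the 7 holds a gene already called higher or lower in these data, so the gaps restate those calls.

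The 3 nearest tested protein-coding neighbours on each side of the serpin clusters gave mixed values, and most were not called. Over all tested genes 7.43% were called higher and 12.2% lower. On chromosome 12, 21 serpins lie together, of which 3 were tested and 2 called lower, where 12.2% of all tested genes were. Going outward on one side, the tested protein-coding neighbours Ifi27l2a and Ifi27l1 were called higher (log2 fold changes of 1.69 and 1.02, adjusted p of 0.00127 and 0.00339). Of these, Ifi27l2a reached the filter only through the deleted libraries. Ddx24 beyond them was not called (-0.11). The nearest on the other side, Dicer1, was not called either (-0.27, adjusted p = 0.256). Beyond it, 4831426I19Rik and Glrx5 were not called (-0.36 and -0.26). Chromosome 1 holds 13 of the reported serpins, of which 4 were tested and 3 called lower, against the same 12.2%. Serpine2, the tested one that was not called, lies outside the clade B cluster. The nearest tested neighbours of this cluster, Vps4b and Tsn, were not called (-0.12 and -0.36, adjusted p of 0.649 and 0.197). Kdsr, next outward after Vps4b, was not called (-0.44), nor were Mki67ip and Clasp1 beyond Tsn (-0.17 and -0.34). Bcl2, the apoptosis inhibitor, lies beyond Kdsr and was lower (15.0 ± 0.398 to 4.24 ± 0.627 FPKM, SD, n = 3 per group, log2 fold change -1.62, adjusted p = 1.62e-05). On chromosome 13, 4 of 14 serpins were tested and 1 was called lower, against the same 12.2%. The nearest tested neighbours there, Wrnip1 and Nqo2, were not called (-0.30 and 0.22). Gmds, next outward after Wrnip1, was called lower (-0.66, adjusted p = 0.0192). Foxc1 beyond Gmds was not called (-0.12), nor were Ripk1 and Bphl beyond Nqo2 (0.23 and 0.06). Gene order was taken from GENCODE M21, on a newer build than the tables.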

How the data were processed

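The authors deposited 1 FPKM table per library. The submitters' processing notes name the build mm9 and, without roles, the tools GSNAP, Cuffdiff, CASAVA 1.8.2 and SAMtools. RNA was extracted with a Qiagen kit and libraries were made with a stranded mRNA kit, per the labels' protocols; the handling of strand at the counting step was not given in the sources used here. Of 31626 genes per table, 378 held the placeholder 999999999 in at least 1 library and were left out; none was a serpin. A further gene that matches the symbol rule is not reported here, so counts, sums, shares and figures of the serpins cover the 56 reported genes. FPKM gives no read counts, so the depth behind a value is unknown, and a value of exactly 0 is described as listed at 0.

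Limma 3.58.1 (R 4.3.3; lmFit, then eBayes with trend) was run on log2(FPKM + 1) for the 11924 genes whose mean reached 1 FPKM, two-sided, with Benjamini-Hochberg adjustment over all tested genes. Log2 fold changes are on that scale; other folds are ratios of mean FPKM. The fit was also run on simulated data with independent noise per gene. The simulation held no library-wide shift like that of Dot1l-deleted replicate 3, and no result here rests on it. Every serpin above the filter is named with its values, and of each of the 9 pathway lists the 3 called genes with the smallest adjusted p. Furin, Ctsg, Ctsl and Gzmb were added as protease partners, and the 3 nearest tested protein-coding neighbours on each side of each cluster by position. The serpins and lists were chosen with earlier results of these data known. Alternatives were other pseudocounts (0.1 and 5), no filter, median-of-ratios scaling, quantile normalization, no variance trend, a replicate block and leaving out each library. Promoters are RefSeq windows of GRCm38.p6, the farthest upstream start of each gene. Genes of 1 chromosome, which holds no reported serpin, were left out of the promoters. Shares and the median over all promoters therefore cover the 27025 genes kept.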

Additional observations from a re-analysis of the deposited data

How the results depend on the processing

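The count of serpins called higher, 0 as deposited, was 3 under median-of-ratios scaling, quantile normalization and scaling without Dot1l-deleted replicate 3; leaving out 1 library gave 0 to 2, the 2 without Dot1l-deleted replicate 3. The count called lower stayed between 5 and 9 over all alternatives. Over all genes, 2345 were called as deposited, 5414 after scaling, 5608 after quantile normalization, 4556 after scaling without replicate 3, and 1819 to 4558 when 1 library was left out, the highest without Dot1l-deleted replicate 3. Called genes of the pathway lists numbered 44 as deposited, 68 after quantile normalization and 35 to 62 when 1 library was left out. Serpine2 changed sign without Dot1l-deleted replicate 2 (log2 fold change -0.01, adjusted p = 0.966; -0.01 to 0.25 when 1 library was left out). The cause was not tested. Without the filter Serpinb9 was lost (adjusted p = 0.0705).

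Same-numbered libraries did not deviate together (correlations of -0.030, -0.038 and 0.013). These values cannot say whether such libraries shared a source, so pairing is unknown, and a replicate block was used only as an alternative. With the replicate block 2 serpins were called higher and 5 lower, Serpinb9 being lost; with the replicate block and scaling together 3 were called higher, and 4470 of all genes were called in either direction.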
